A study of Mus musculus with 18 samples.

Results

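The genes described here are the cell cycle and DNA replication genes of the postnatal mouse brain: 42 genes, listed by symbol, of which 11 act in S-phase and 31 in mitosis. Each gene was read from the brightest probe set, by mean RMA value, that the array's annotation gives to its symbol alone. On that rule 41 of the 42 were measured, out of 18194 genes on the array, and Ccnb1 was the one without such a probe set. The brighter 60% of all genes, 10916, were tested, and 28 of the 41 were among them: 9 S-phase genes and 19 mitosis genes. The other 13 were too dim in their mean over all 6 pools: Ccne2 and Tyms of the S-phase genes, and Aurka, Aurkb, Anln, Bub1, Cenpe, Kif11, Kif20a, Kif23, Melk, Ttk and Ube2c of the mitosis genes. The lower bound lay at a mean RMA value of 9.42, with Birc5 (9.44) and Ect2 (9.45) just inside it and Ttk (9.21) and Ube2c (9.18) just outside.

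Dividing cells copy their DNA in S-phase and separate it in mitosis. The MCM proteins form the helicase that opens DNA at replication origins, PCNA is the clamp that holds the polymerase, and ribonucleotide reductase supplies the deoxynucleotides. Cyclins with CDK1, Aurora and Polo kinases then drive mitosis, in which kinesins and centromere proteins move the chromosomes. In the first postnatal week of a mouse the cerebellum holds many dividing granule cell precursors, which proliferate in its outer layer under Sonic hedgehog, and glial precursors and microglia divide throughout the brain.

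Whole brains came from mouse pups, male and female, of 3 genotypes from brother-sister crosses: wild-type (+/+), heterozygous (+/-) and homozygous (-/-, Mt-KO) for a knockout of metallothionein, a small metal-binding protein. The knockout had been backcrossed to C57BL/6J for at least 7 generations. On postnatal days 7 and 8 the pups of each genotype were given 2 daily injections, separated by 4 h, of either lead acetate at 50 mg/kg or saline, and they were killed 6 h later, on postnatal day 8. A pool held the RNA of 5 pups and was run on 1 Affymetrix mouse array, so the 6 pools (1 for each genotype with each treatment) are single measurements and the spread between pups was not measured. No cells were sorted, so fewer or more dividing cells and less or more RNA per cell cannot be told apart.

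Facts of the whole series that touch these genes were as follows. Neuron, astrocyte and oligodendrocyte genes (Snap25, Syt1, Aqp4, Gfap, Mbp) were bright in all 6 pools, at RMA values of 12.1 to 14.7. The probe set of Mt1, a metallothionein gene, read 13.17 and 13.30 in wild-type brain (saline, then lead), 12.45 and 12.87 in heterozygous brain and 11.68 and 11.71 in Mt-KO brain. The labels do not place that probe set relative to the disruption. The Y-linked gene Eif2s3y differed between the Mt-KO pools. It read 6.50 with saline and 11.16 with lead in Mt-KO brain, against 9.45 to 10.45 in the other pools. The wild-type saline pool stood apart in the excess of the 3' over the 5' Gapdh control probe set, a sign of RNA quality, which was 1.19 on the log2 scale there and 0.54 to 0.82 elsewhere. The median gene tested read 11.05 in that pool, against 10.87 to 11.04 in the others. Levels in pools and differences between pools are therefore given below relative to the median gene tested of the array, or of the pair of arrays compared. They are on the log2 scale of the RMA values, and plain RMA values are named as such. Limma coefficients of single genes, and their p-values, were not made relative unless this is said. The median gene had coefficients of 0.02 for lead, -0.03 for Mt-KO, 0.00 for the heterozygote and -0.15 per intact allele for the interaction.

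Many cell cycle genes are known to be controlled through short promoter motifs. Promoter stretches are shown for 6 of them, the brightest that hold the CHR element (TTTGAA, a motif of late cell cycle genes) among the mitosis genes and the E2F site (TTTCCCGC, TTTGGCGC, TTTCGCGC or TTTGCCGC) among the S-phase genes. They come from RefSeq promoter windows on GRCm38.p6, are written 5' to 3' on the strand of the gene, and carry the motif in capitals.
Hmgb2: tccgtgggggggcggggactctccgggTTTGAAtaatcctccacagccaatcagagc
Mki67: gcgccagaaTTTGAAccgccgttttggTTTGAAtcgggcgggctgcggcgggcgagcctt
Prc1: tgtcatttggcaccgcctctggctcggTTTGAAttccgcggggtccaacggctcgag
Mcm7: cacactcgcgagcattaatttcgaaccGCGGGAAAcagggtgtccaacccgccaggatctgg
Mcm6: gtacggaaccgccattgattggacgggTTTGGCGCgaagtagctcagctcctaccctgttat
Mcm5: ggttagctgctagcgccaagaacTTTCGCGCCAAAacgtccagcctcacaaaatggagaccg

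The stretches lie at chr8:57511786-57511842 (Hmgb2, plus strand), chr7:135716445-135716504 (Mki67, minus strand), chr7:80294419-80294475 (Prc1, plus strand), chr5:138172014-138172075 (Mcm7, minus strand), chr1:128359718-128359779 (Mcm6, minus strand) and chr8:75109333-75109394 (Mcm5, plus strand). In Mcm7 the match is on the other strand, and in Mcm5 the capitals are 2 matches that overlap, one on each strand. The CHR element lies 24 bases before the annotated start of Hmgb2, and 24 bases before the start that belongs to the window shown for Prc1. Prc1 and Mcm7 each have 2 windows. The gene Prc1 is annotated from base 80294445, so its element lies just inside the gene. The Mcm7 stretch, too, lies inside the annotated gene, which reaches base 138172111. Of the 42 genes, 35 had a window of 250 bases before the start. Searched on both strands, the CHR letters were in 10 of 26 mitosis genes (38.5%) and 1 of 9 S-phase genes (11.1%), against 18.3% of all 27025 genes with a window. The E2F letters were in 3 of 9 S-phase genes (Mcm5, Mcm6 and Mcm7, 33.3%) and in 1 of 26 mitosis genes (Cdk1, 3.85%), against 2.16% of all genes. The CCAAT box, bound by NF-Y, was in 8 of 9 S-phase genes (88.9%) and 21 of 26 mitosis genes (80.8%), against 37.5% of all genes. Such a match is a description of letters, not of binding.

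Lead against saline asks whether acute lead exposure moved the cell cycle genes of the pup brain. One of the 28 genes tested passed, Hmgb2, a chromatin protein of dividing cells, which was higher in the lead pools. None was lower. Most of the others lay slightly above the median gene: 23 of 28 did so in the additive limma fit, with a median of 0.08 relative to the median gene, and 22 of 27 without Hmgb2 (median 0.08). Over all genes tested 13 passed (0.119%). At an unadjusted p under 0.05 there were 4 of the 28, all higher: Hmgb2, Ccna2, Mki67 and Ect2. Of all 10916 genes tested 167 had such a p, 114 of them higher.

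The shift was not shared evenly by the genotypes. In the wild-type pair of pools the median of the 28 genes was 0.22 and 25 of them lay above the median gene. The Mt-KO pair gave 0.12 with 21 above, and the heterozygous pair -0.01 with 13 above. In that order of wild-type, heterozygous and Mt-KO pair, which is kept below, S-phase genes had medians of 0.15, 0.04 and 0.13 and mitosis genes had 0.24, -0.02 and 0.11. The 13 genes too dim to be tested gave 0.21, 0.04 and 0.06, where all 7278 genes too dim to be tested had 0.22, -0.13 and -0.14, so their wild-type value was that of dim genes in general. Of the 28, 10 were above the median gene in all 3 pairs and none was below in all 3, whereas 11.5% of all genes tested were above in all 3. The 3 lead pools all lay above the 3 saline pools, relative to the median gene of each array, for 5 of the 28 (Hmgb2, Ccna2, Mcm5, Mcm7 and Rrm1), and this held for 4.79% of all genes tested. For Ccna2 it rested on a gap so small (-0.345 against -0.350) that its heterozygous difference was -0.01 when taken relative to the median gene of the pair. Mcm5, Mcm7 and Rrm1 each had another probe set in which the groups overlapped.

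**Figure D1:**
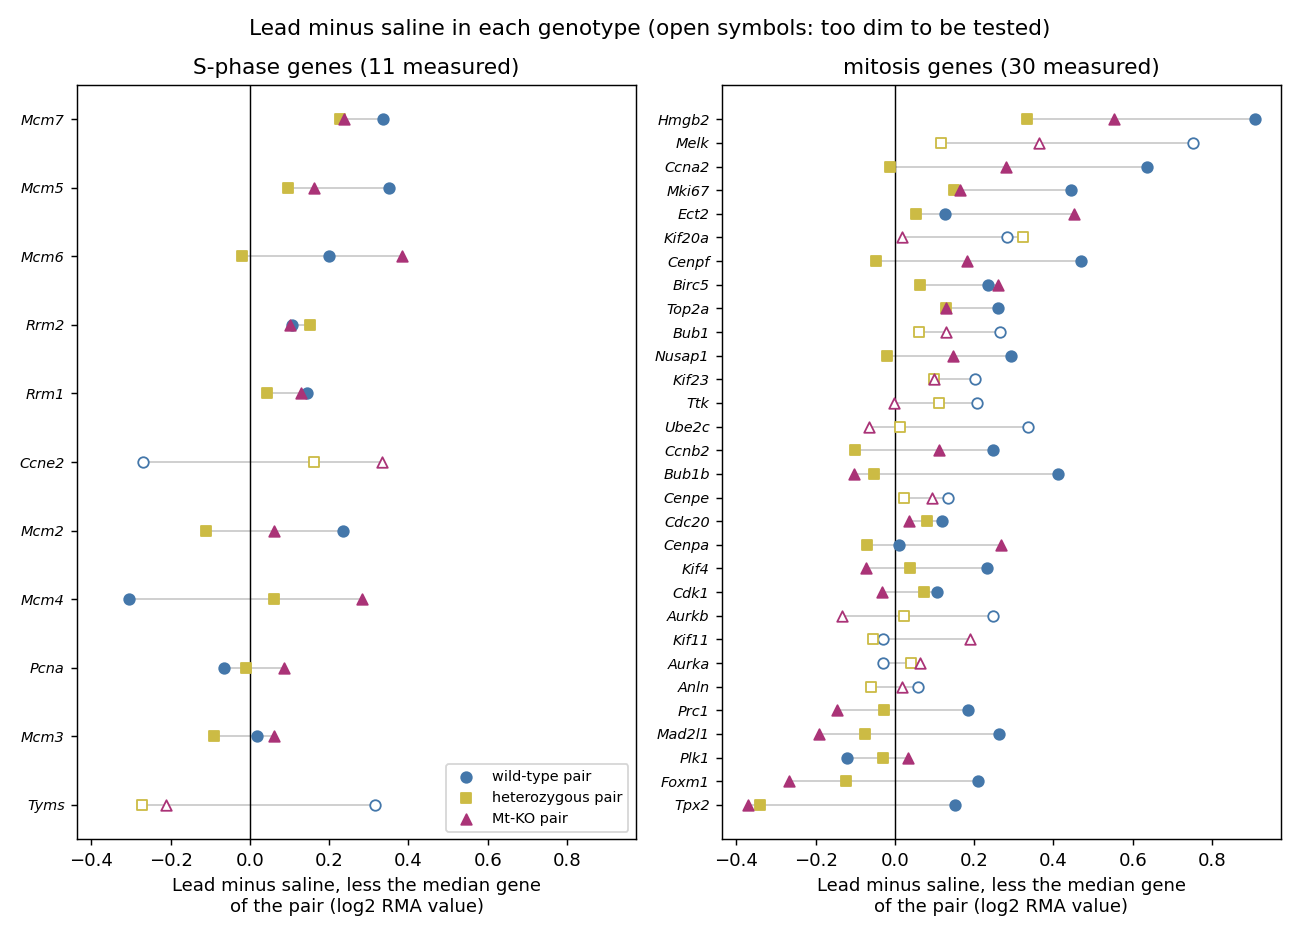
Lead minus saline in each genotype for the 11 S-phase and 30 mitosis genes measured, in log2 RMA units less the median gene of the pair. Each symbol is a pair of single pools, and open symbols mark genes too dim to be tested. Hmgb2 lay at 0.91 (wild-type), 0.33 (heterozygous) and 0.55 (Mt-KO), Mcm7 at 0.34, 0.23 and 0.24, and Tpx2 was lowest in the heterozygous and Mt-KO pairs.

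Differences between pools also moved with brightness. With all genes tested split into 4 brightness classes of equal size, the dimmest class had a median lead minus saline of 0.12, -0.08 and -0.08 in the 3 pairs, and the brightest class had -0.07, 0.10 and 0.06. Of the 28 cell cycle genes, 24 fell in the 2 dimmer classes. Within the second of these, which held 15 of them, their medians were 0.21, 0.04 and 0.13 against 0.02, -0.03 and -0.02 for all genes there. In the dimmest class, with 9 of them, they were 0.23, -0.03 and 0.11. The part that brightness had in the shift was not tested.

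Hmgb2, which bends DNA and is abundant in proliferating cells, had the largest difference of the 28 in every pair. Relative to the median gene of the array it read -0.55, -0.35 and -0.34 in the saline pools and 0.36, -0.00 and 0.22 in the lead pools. The lowest lead pool, the heterozygous one, was above the highest saline pool. The lead coefficient was 0.62 (SE 0.13, limma adjusted p = 0.00378), and the 3 pairs averaged 0.60 ± 0.29 (SD, n = 3 pairs). The brightest probe sets of Hmgb2, Mcm3, Mcm4, Mcm5, Rrm2, Cdc20 and Aurkb (_x_at) and of Mcm2, Mcm7 and Prc1 (_s_at) carry suffixes that Affymetrix gives to sets whose probes may also match other transcripts, so their values are less certain. A dimmer probe set of Hmgb2 without that suffix had like differences, from RMA values of 9.49, 9.65 and 9.83 in saline to 10.38, 10.04 and 10.56 in lead, whereas a faint probe set at a mean of 7.07 was no higher (7.16, 7.09 and 7.10 against 7.16, 6.77 and 7.12). The call rested on the settings: it was kept when only the upper 40% of genes was tested (adjusted p = 0.00809) and lost with GC-RMA (coefficient 0.96, adjusted p = 0.93), and with the mean of the probe sets the coefficient was 0.40 (adjusted p = 0.699). It was also lost without the heterozygous pair (0.69, adjusted p = 1) or the Mt-KO pair (0.61, adjusted p = 1). Without the wild-type saline pool the coefficient was 0.57. Relative to the median gene that was 0.44, against 0.60 with all pools.

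The other chromatin and proliferation markers did not pass. Mki67, whose protein Ki-67 coats mitotic chromosomes, read -0.36, -0.45 and -0.21 in the saline pools and 0.08, -0.28 and -0.04 in the lead pools. It was higher with lead in each genotype, but the groups overlapped, since the heterozygous lead pool was below the Mt-KO saline pool (lead coefficient 0.27, SE 0.13, limma adjusted p = 1). Top2a, the topoisomerase that untangles sister DNA, differed by 0.26, 0.13 and 0.13 in the 3 pairs (coefficient 0.19, SE 0.12, limma adjusted p = 1).

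**Figure D2:**
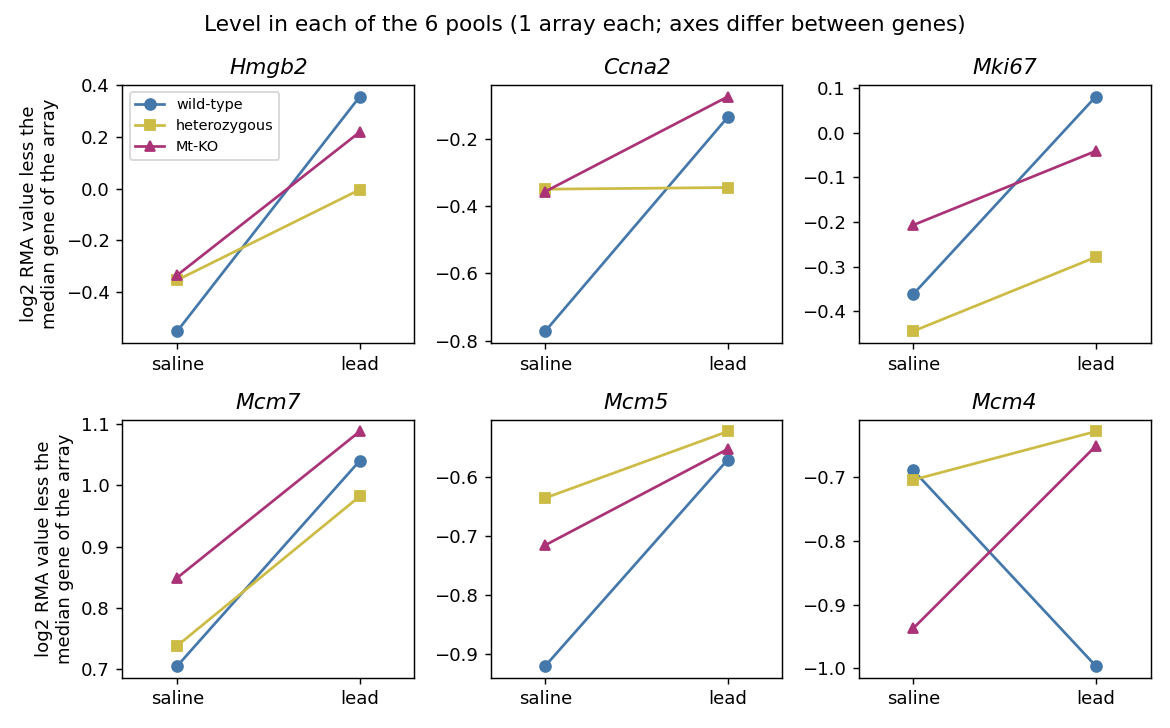
RMA value less the median gene of the array in each of the 6 pools, for Hmgb2, Ccna2, Mki67, Mcm7, Mcm5 and Mcm4, with saline on the left and lead on the right. Each point is 1 pool and lines join pools of a genotype. Hmgb2 was higher with lead in all 3 genotypes, and Mcm4 went from -0.69 to -0.996 in wild-type but from -0.94 to -0.65 in Mt-KO brain.

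Among the mitotic cyclins and kinases, Ccna2, the cyclin of late S-phase and G2, differed by 0.64, -0.01 and 0.28. Its saline pools read -0.77, -0.35 and -0.36 and its lead pools -0.14, -0.34 and -0.07, so the groups were separated by only a small gap between the heterozygous pools. Most of the separation lay in the low wild-type saline pool, the lead coefficient was 0.32 (SE 0.13, limma adjusted p = 1), and with GC-RMA it was 0.01. A second probe set of Ccna2, nearly as bright, had RMA values of 10.33, 10.39 and 10.51 in saline and 10.59, 10.74 and 10.79 in lead. The small heterozygous gap thus depended on the probe set. Ccnb2, a mitotic cyclin, differed by 0.25, -0.10 and 0.11. Cdk1, the kinase these cyclins activate, differed by 0.11, 0.07 and -0.03, and Plk1, the Polo kinase, by -0.12, -0.03 and 0.03. Melk, a kinase of proliferating cells, was too dim to be tested, with differences of 0.75, 0.12 and 0.36. Aurka and Aurkb, the Aurora kinases, were also too dim, with Aurka between -0.03 and 0.06 and Aurkb at 0.25, 0.02 and -0.13.

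The 3 centromere and passenger genes tested lay above the median gene in the wild-type and Mt-KO pairs, and 1 of them in the heterozygous pair. Cenpf, a kinetochore protein, differed by 0.47, -0.05 and 0.18, Birc5 (survivin, of the passenger complex) by 0.24, 0.06 and 0.26, and Cenpa, the centromeric histone, by 0.01, -0.07 and 0.27. The dim kinetochore motor Cenpe had 0.13, 0.02 and 0.10. Ect2, the exchange factor that starts cytokinesis, differed by 0.13, 0.05 and 0.45 (lead coefficient 0.23, SE 0.11, limma adjusted p = 1), and its Mt-KO lead pool, at -1.21, was above the other 5, which read -1.67 to -1.47. Anln, which organises the contractile ring, was dim and lay between -0.06 and 0.06.

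The spindle genes did not move as one. Nusap1, which bundles spindle microtubules, differed by 0.29, -0.02 and 0.15 and the kinesin Kif4 by 0.23, 0.04 and -0.07. Prc1, which bundles the central spindle, had 0.18, -0.03 and -0.15 although its promoter carries the CHR letters shown above. Tpx2, a spindle assembly factor, was above the median gene in the wild-type pair (0.15) and the lowest of all in the heterozygous (-0.34) and Mt-KO (-0.37) pairs. A second probe set of Tpx2 (RMA values of 9.65 and 9.50, and 9.81 and 9.56, in saline and lead) was also lower with lead in these genotypes, but the dimmer probe sets were higher (8.53 and 8.68, and 8.67 and 8.78, in one, and 8.44 and 8.56, and 8.53 and 8.82, in the other), so its direction depends on the probe set. The checkpoint genes Bub1b (0.41, -0.05 and -0.10) and Mad2l1 (0.26, -0.07 and -0.19) and the transcription factor Foxm1 (0.21, -0.12 and -0.27) had the same order. Cdc20, the activator of the anaphase-promoting complex, lay between 0.04 and 0.12 in the 3 pairs. Of the dim genes, the checkpoint kinases Bub1 (0.27, 0.06 and 0.13) and Ttk (0.21, 0.11 and -0.00), the kinesins Kif20a (0.28, 0.32 and 0.02), Kif23 (0.20, 0.10 and 0.10) and Kif11 (-0.03, -0.06 and 0.19), and the ubiquitin-conjugating enzyme Ube2c (0.34, 0.01 and -0.07) were not tested.

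Of the 9 S-phase genes tested, 8 lay above the median gene with lead (median 0.10) and none passed. Mcm7 read 0.70, 0.74 and 0.85 in the saline pools and 1.04, 0.98 and 1.09 in the lead pools. Its saline and lead pools did not overlap and the 3 pairs were close, at 0.27 ± 0.06 (SD, n = 3 pairs), but the fit gives each gene the spread usual at its brightness, and the limma adjusted p was 1 (coefficient 0.29, SE 0.16). Other probe sets of Mcm7 varied. One had RMA values of 10.64, 10.83 and 10.96 in saline and 10.94, 11.01 and 11.08 in lead, with overlap. Another, at 10.15, 10.37 and 10.65 against 10.38, 10.56 and 10.84, also overlapped. The dimmest did not (10.09, 10.13 and 10.03 against 10.18, 10.35 and 10.29). Mcm5 read -0.92, -0.64 and -0.72 in saline and -0.57, -0.52 and -0.55 in lead, without overlap in its brightest probe set (coefficient 0.22, SE 0.12, limma adjusted p = 1). Its second probe set overlapped, with RMA values of 8.21, 8.25 and 8.46 in saline and 8.35, 8.54 and 8.68 in lead.

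The remaining helicase subunits varied more. Mcm6 differed by 0.20, -0.02 and 0.38, Mcm2 by 0.24, -0.11 and 0.06, and Mcm3 by 0.02, -0.09 and 0.06. In their brightest probe sets the ribonucleotide reductase genes were close in all pairs, Rrm1 at 0.14, 0.04 and 0.13 and Rrm2 at 0.10, 0.15 and 0.10. A second probe set of Rrm1 had RMA values of 9.685, 9.767 and 10.011 in saline and 9.737, 9.794 and 10.144 in lead, with overlap. A dimmer one of Rrm2 read 8.77, 9.15 and 9.34 against 8.87, 9.26 and 9.60. Pcna, the brightest of the 41 at a mean RMA value of 12.45, lay at the median gene, with -0.07, -0.01 and 0.09. Of the dim pair, Tyms, which makes thymidylate, had 0.32, -0.27 and -0.21, and the G1/S cyclin Ccne2 had -0.27, 0.16 and 0.33.

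The interaction of lead with the number of intact metallothionein alleles, taken as linear, asks whether the lead difference varied with genotype. Of all genes tested 412 passed (3.77%), 365 of them with a negative coefficient, and of the 28 cell cycle genes Mcm4 alone did, a share no larger than that of all genes. Relative to the median gene of the array, Mcm4 read -0.69 in saline and -0.996 in lead in wild-type brain, -0.70 and -0.63 in heterozygous brain and -0.94 and -0.65 in Mt-KO brain. Lead minus saline was thus -0.31, 0.06 and 0.28 in order of falling allele number, and the coefficient was -0.43 per intact allele (SE 0.11, limma adjusted p = 0.00794). The median gene had -0.15 per allele, which leaves -0.29 for Mcm4. Its second probe set had RMA values of 9.98 and 9.74, 9.91 and 10.07, and 9.86 and 10.16 in the saline and lead pools of the same 3 genotypes. The order of differences was the same but their range was smaller. These values are not relative to the median gene, which itself differed by -0.18, 0.15 and 0.09 in the 3 pairs.

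The Mcm4 call depended on scaling and on single pools. With arrays centred on the median gene, an alternative added after the data had been seen, the coefficient was -0.30 (adjusted p = 0.131). Without the wild-type lead pool it was -0.14 (adjusted p = 1), without the wild-type saline pool -0.465 (adjusted p = 1), and without the Mt-KO saline pool -0.40 (adjusted p = 0.341). Ect2 came next (-0.30, SE 0.10, limma adjusted p = 0.0701), followed by Cenpa (-0.27, SE 0.11, adjusted p = 0.126), Plk1 (-0.22, SE 0.10, adjusted p = 0.223) and Mcm6 (-0.23, SE 0.12, adjusted p = 0.236). Relative to the median gene these coefficients were -0.16 for Ect2, -0.12 for Cenpa, -0.07 for Plk1 and -0.085 for Mcm6. Hmgb2 had an interaction coefficient of 0.04 (SE 0.12, adjusted p = 0.831).

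Mt-KO against wild-type asks whether loss of metallothionein moved the same genes. None of the 28 passed in the limma fit, and 1, Ccnb2, had an unadjusted p under 0.05. Of all 10916 genes tested 47 passed (0.431%) and 382 had an unadjusted p under 0.05. Of the 28, 26 lay above the median gene, with a median of 0.16, all 9 S-phase genes (median 0.14) and 17 of 19 mitosis genes (median 0.17) among them. Between saline pools the median was 0.20, and between lead pools 0.12. Of the 28, 20 were above in both pairs of pools and none was below in both, against 24.9% of all genes tested above in both. Of the 13 dim genes 10 were above in both, with medians of 0.30 between saline pools and 0.21 between lead pools, where all 7278 genes too dim to be tested had 0.17 and -0.16. The further replication, mitosis and G1 lists described below had lower Mt-KO medians, of 0.09, 0.05 and 0.08.

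These counts differed with the wild-type pools used. Without the wild-type saline pool 19 of 28 genes lay above the median gene, with a median of 0.10, and without the wild-type lead pool 27 did, with a median of 0.22. In these fits with fewer pools 12 and 3 of the 28 passed, but so did 2429 and 4380 of all genes tested. By brightness, the median Mt-KO coefficient relative to the median gene was 0.04 in each of the 2 dimmer classes of all genes tested and -0.10 in the brightest. Cerebellar granule cell precursor genes lay 11 of 14 above the median gene in Mt-KO brain (median 0.22), with Nhlh2 higher (limma adjusted p = 0.00728) and Zic2 lower (limma adjusted p = 0.000995), and genes of cerebellar neurons after division had a median of 0.13. Their part in the Mt-KO values of the cell cycle genes was not tested.

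Ccnb2 had the largest Mt-KO coefficient of the 28. It read -1.70 and -1.45 in the wild-type pools, saline then lead, and -1.33 and -1.22 in the Mt-KO pools, which did not overlap (coefficient 0.30, SE 0.14, limma adjusted p = 1). Plk1 read -1.60 and -1.72 in wild-type and -1.42 and -1.39 in Mt-KO, again without overlap (coefficient 0.26, SE 0.13, adjusted p = 1). Top2a went from -1.02 and -0.76 to -0.69 and -0.55 (coefficient 0.27, SE 0.15, adjusted p = 1). A second probe set of Top2a overlapped, with RMA values of 9.20 and 9.18 in wild-type and 9.09 and 9.33 in Mt-KO brain. In their brightest probe sets these 3 mitotic genes were higher in both Mt-KO pools than in both wild-type pools. So were Cdk1, Cenpa and Cdc20 of the mitosis genes tested and Mcm3, Pcna and Rrm2 of the S-phase genes. None of them passed. The share of all genes tested with such a separation was not counted, so the separation cannot be read as particular to these genes.

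Of the other genes of high rank, Cenpa was 0.14 higher between saline pools and 0.42 between lead pools, Birc5 0.23 and 0.28, Cdk1 0.28 and 0.17, Ccna2 0.43 and 0.11, and Ect2 0.02 and 0.38. Mcm3 was 0.16 and 0.23 higher, Pcna 0.12 and 0.31, and Tpx2 0.47 and -0.03. The dim genes Kif11 (0.38 and 0.64), Bub1 (0.53 and 0.43) and Ube2c (0.62 and 0.25) had the largest Mt-KO coefficients of the 41 when no genes were left out for dimness. Their adjusted p-values in that limma fit were 0.819, 0.593 and 0.896. Dimmer probe sets of Kif11 and Bub1 did not all go the same way. In RMA values, saline then lead, one of Kif11 read 7.53 and 7.98 in wild-type and 7.80 and 7.53 in Mt-KO brain. Another of Kif11 was higher in Mt-KO (8.50 and 8.69 against 8.67 and 8.81), and one of Bub1 was lower (7.12 and 7.05 against 6.91 and 7.01). Prc1 was lowest, with 0.05 and -0.25.

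**Figure D3:**
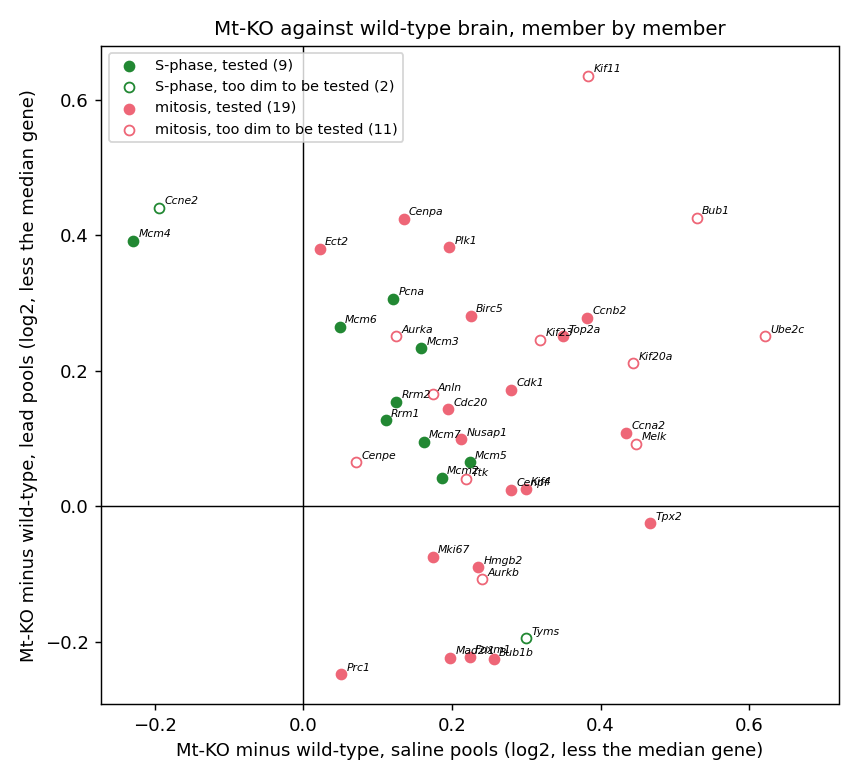
Mt-KO minus wild-type for each of the 41 genes, between saline pools on the horizontal axis and between lead pools on the vertical axis, in log2 RMA units less the median gene of the pair of pools. Filled symbols are the 28 genes tested and open symbols the 13 too dim. Of the 28, 20 lie in the upper right quadrant and Mcm4 lies to the left, at -0.23 and 0.39.

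The heterozygote differed less from wild-type, and its pools share the wild-type pools with the comparison above. None of the 28 genes passed in limma, and Plk1 alone had an unadjusted p under 0.05. Of all 10916 genes tested 13 passed (0.119%) and 131 had an unadjusted p under 0.05. The median was 0.04 with 21 of 28 above the median gene, 0.15 between saline pools and -0.07 between lead pools. Of the 28, 10 were above in both pairs of pools and 1, Mki67, was below in both (-0.06 and -0.35), while 17.0% of all genes tested were above in both. Without the wild-type saline pool the median was -0.04, with 11 of 28 above.

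For single genes, Plk1 was 0.22 and 0.32 higher in the heterozygous pools than in wild-type (coefficient 0.27, SE 0.14, limma adjusted p = 1). Mcm5 was 0.30 and 0.05 higher, Pcna 0.16 and 0.21, Cdk1 0.15 and 0.12, Top2a 0.18 and 0.05, and Mcm3 0.15 and 0.05. Mcm4 did not differ between saline pools (0.00) and was 0.37 higher between lead pools. Ccna2 changed sign, at 0.44 and -0.20.

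Other genes of the same pathways were read from further lists. These lists were drawn up with earlier results of these data known. Of 28 further replication genes tested, none passed for lead and 14 lay above the median gene (median 0.00). For Mt-KO 20 of these 28 were above (median 0.09), with medians of 0.15 between saline pools and -0.00 between lead pools. Among them Cdt1, which licenses origins, differed by 0.34, 0.10 and 0.02. Rpa3, of the single-strand binding complex, had the one interaction call (-0.41 per allele, SE 0.11, limma adjusted p = 0.0106). Relative to the median gene it was -0.26, and 3.77% of all genes tested passed for the interaction.

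Of 30 further mitosis genes none passed for lead and 21 were above (median 0.04). For Mt-KO 17 of the 30 were above (median 0.05), with medians of 0.09 between saline pools and -0.04 between lead pools. Racgap1, the partner of Ect2 in cytokinesis, had the largest t for Mt-KO in that list, 0.60 and 0.21 higher between saline and lead pools (coefficient 0.38, SE 0.15, limma adjusted p = 0.64). Of 16 G1 cyclins, kinases and E2F factors none passed for lead and 12 were above (median 0.03), led by Tfdp2, a partner of E2F, at 0.38, 0.11 and 0.50. Lin54, of the DREAM complex that binds the CHR element, had an interaction coefficient of -0.49 (SE 0.10, limma adjusted p = 0.000704). It was -0.35 relative to the median gene. Lin54 was the 1 interaction call among the 16, where 3.77% of all genes tested passed.

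Of 13 cell cycle inhibitors none passed for lead and 8 were above (median 0.05). For Mt-KO 4 of the 13 were above, with a median of -0.04. Cdkn1b, the inhibitor p27, differed by -0.255 between saline pools and -0.253 between lead pools (coefficient -0.28, SE 0.18, limma adjusted p = 1). Rbl2, of the retinoblastoma family, had an interaction coefficient of -0.36 (SE 0.10, limma adjusted p = 0.0236), or -0.22 relative to the median gene. Rbl2 was the 1 interaction call among the 13, against 3.77% of all genes tested. Of 10 hedgehog pathway genes none passed for lead and 6 were above (median 0.01). Shh itself, the mitogen of granule cell precursors, was lower by differences of -0.29, -0.30 and -0.18 in the 3 pairs, without passing (coefficient -0.23, SE 0.12, limma adjusted p = 1).

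Markers of cell types that divide in the pup brain were set beside these genes. These lists, too, were drawn up with earlier results known. Of the cerebellar granule cell precursor genes 4 of 14 tested rose with lead (Nhlh2, Insm1, En2 and Pax6, limma adjusted p = 3.43e-05, 0.000531, 0.00268 and 0.00363), 12 were above the median gene, and the median was 0.39. By pair their medians were 0.605, 0.227 and 0.407. Their mean level relative to the median gene was -0.87, -0.67 and -0.63 in the saline pools and -0.37, -0.41 and -0.32 in the lead pools, without overlap. The 28 cell cycle genes stood at -0.75, -0.61 and -0.57 in saline and -0.53, -0.58 and -0.46 in lead, with overlap, and both lists were lowest in the wild-type saline pool. Genes of cerebellar neurons after division also lay higher (8 of 10, median 0.27, none passing), and these do not divide.

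Microglial genes had 7 of 8 above the median gene (median 0.14, none passing), with mean levels of -0.45, -0.39 and -0.34 in saline and -0.20, -0.17 and -0.31 in lead. Forebrain neuroblast genes (4 of 9 above, median -0.01), neural stem cell and radial glia genes (7 of 12, 0.01), oligodendrocyte precursor genes (5 of 9, 0.05) and endothelial genes (1 of 9, -0.06) lay closer to the median gene, and none of them passed for lead. Only 2 erythroid genes were tested (median 0.01). The part that the share of cerebellum in each pool, the RNA quality of the wild-type saline pool or the mix of sexes had in the values of the cell cycle genes was not tested.

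**Figure D4:**
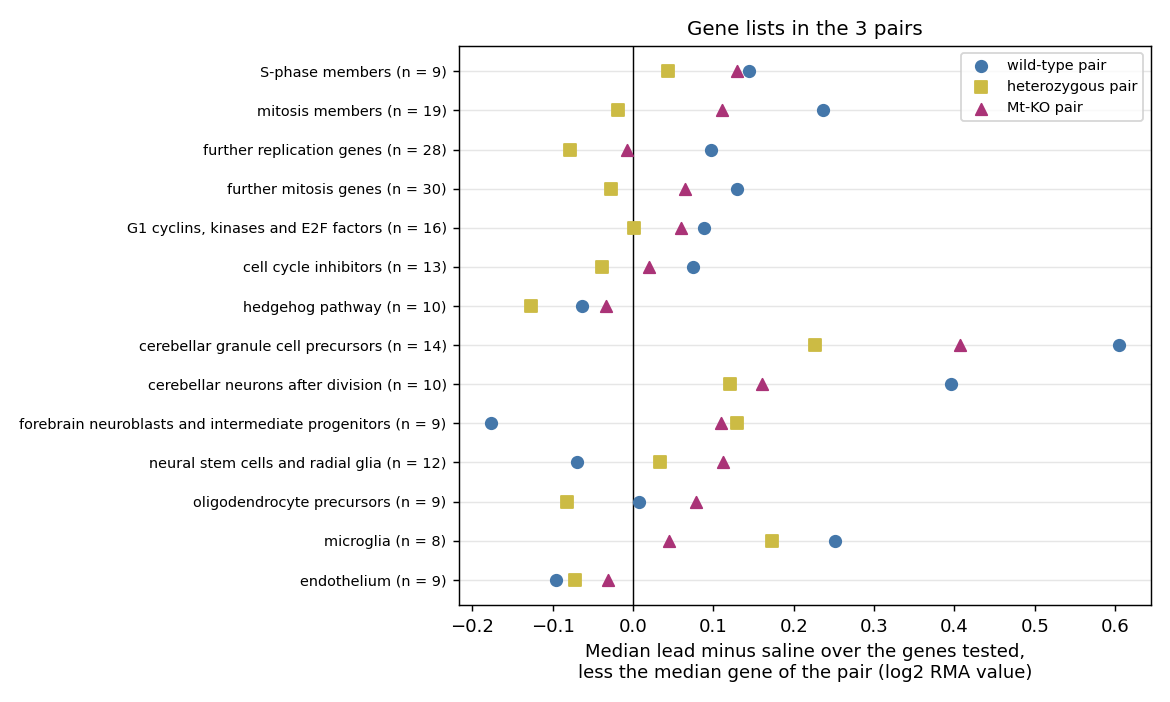
Median lead minus saline over the genes tested of each list, less the median gene of the pair, in log2 RMA units, with 1 symbol for each genotype. Cerebellar granule cell precursor genes lie farthest right (0.23 to 0.61), the S-phase and mitosis genes lie between -0.02 and 0.24, and further replication genes between -0.08 and 0.10.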

How the data were processed

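Each of 6 RNA pools (5 pups each) was hybridised to 1 array, and the 18 deposited columns are these 6 arrays summarised 3 ways, so they were not counted as replicates. Of the deposited columns, those made by RMA and GC-RMA hold log2 values. Those made by PLIER were deposited as linear intensities, which were converted to log2 after adding 16. The submitters' processing notes name Partek with RMA, GCRMA and PLIER; versions and settings are not given in the sources used here.

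Of 45101 probe sets the annotation gave 1 symbol for 34958, several for 932 and none for 9211, and the last 2 kinds were left out. A gene was read from its brightest probe set. The 10916 genes in the upper 60% of mean RMA values were fitted in R 4.3.3 with limma 3.58.1, using eBayes with a variance trend; tests were two-sided, with p-values adjusted by Benjamini-Hochberg over all genes tested and a threshold of 0.05. The lead, Mt-KO and heterozygous coefficients came from a model with additive genotype and treatment, and the interaction from a model of treatment by allele number; both left 2 residual degrees of freedom. No combination was replicated, so p-values measure departures from the fitted model between pools. limma's prior was infinite in both of these RMA fits, so each gene received the spread usual at its brightness. On simulated data with 10916 genes, differences of 0.5 (log2) were recovered in 56% of cases for lead, 30% for Mt-KO, 24% for the heterozygote and 22% for the interaction, and differences of 1 in 98%, 88%, 90% and 86%, with 14, 13, 6 and 6 false calls.

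The members and lists were chosen with earlier results of these data known. Values are given for all members, and the text describes those passing a test and the 10 with the largest t for lead, Mt-KO and the heterozygote (5 for the interaction); from each further list, those passing or among the 4 with the largest t for lead or Mt-KO could be named. Sequences are RefSeq's. Alternatives covered the other summaries, quantile normalization, filter, probe set rule, variance trend, genotype term and leaving out arrays or pairs. The labelling kit named in the labels belongs to whole-transcript arrays, while the probe sets are those of a 3' array.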

Additional observations from a re-analysis of the deposited data

Results flagged for a closer look

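Mcm4, a subunit of the replicative helicase, was the one cell cycle gene whose lead difference varied with genotype by a test of that difference. The interaction coefficient was -0.433 per intact metallothionein allele (SE 0.111, limma adjusted p = 0.00794), from lead minus saline differences of -0.31 in the wild-type, 0.06 in the heterozygous and 0.28 in the Mt-KO pair. Of all genes tested 3.77% passed the same test, so 1 of 28 is near the background, and the median gene had -0.145 per allele. The call was lost with arrays centred on the median gene (adjusted p = 0.131), GC-RMA (0.575), PLIER (0.124), quantile normalization (0.233), no brightness filter (0.0819) and no variance trend (0.0846). It was also lost without either wild-type array (adjusted p = 1) or the Mt-KO saline array (0.341).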

How the results depend on the processing

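One cell cycle gene passed for lead (Hmgb2), and none did with GC-RMA, PLIER, quantile normalization, no brightness filter, the mean over probe sets, no variance trend, centred arrays, no genotype term, or without the heterozygous or Mt-KO pair. At an unadjusted p under 0.05, 1 to 6 of the cell cycle genes passed in these fits, beside 54 to 552 of all genes fitted. Without the wild-type pair 14 passed (24.1% of all genes did), and leaving out single arrays gave 0 to 14. The lead median of 0.08 was 0.21 with GC-RMA, 0.14 with the upper 40% of genes or without either heterozygous array, and 0.055 with the mean over probe sets, and with GC-RMA the medians of the wild-type and Mt-KO pairs were 0.35 and 0.28. For Mt-KO, leaving out single arrays gave 0 to 12 calls and medians of 0.10 to 0.22; for the heterozygote it gave 0 to 4 calls. The count of interaction calls was 0 with GC-RMA, PLIER, quantile normalization, no filter, no variance trend and centred arrays, and 2 (Mcm4 and Ect2) with the mean over probe sets. It was also 0 with the upper 40% of genes, but Mcm4 was too dim to be tested there. Leaving out some single arrays changed it as well. The causes were not tested.

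In 12 cases a coefficient of a named gene that did not pass changed sign. With GC-RMA these were Plk1 for Mt-KO (-0.025) and, for the heterozygote, Plk1 (-0.026), Mcm5 (-0.091) and Ccna2 (-0.078). When single arrays were left out, coefficients for the heterozygote ran from -0.199 to 0.584 for Mcm4, -0.100 to 0.332 for Ect2, -0.032 to 0.240 for Mcm3 and -0.016 to 0.394 for Pcna, each lowest without the wild-type lead array, and from -0.016 to 0.259 for Ccna2, lowest without the heterozygous saline array. Ect2 for Mt-KO ran from -0.063 to 0.410, negative without the Mt-KO lead array and (-0.042) without the wild-type lead array, and the Plk1 interaction ran from -0.463 to 0.032, positive without the wild-type lead array. Of the other named coefficients under the alternatives, 429 kept direction and side of the threshold, 42 newly passed and 23 no longer passed. The lead fit pairs lead and saline pools by genotype; without that term the adjusted p of Hmgb2 was 0.14. The labels give no replicate numbers to pair by. Single pools and the many dim members limit the precision.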
